A study of Mus musculus with 16 samples.

Results

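Mature adipocytes store triglyceride in a lipid droplet coated by perilipin, release it as fatty acids when catecholamines act on beta adrenergic receptors, and secrete hormones known as adipokines. White fat lies in the mesentery, the sheet that carries vessels to the gut, next to the ileal wall. The level of adipocyte RNA in a piece of ileum depends both on how much such tissue the piece holds and on what its cells express. Adipocyte genes were followed in RNA-seq of mouse terminal ileum as 10 genes chosen by name: the adipokine genes Adipoq, Lep, Retn and Cfd, the lipid droplet and lipolysis genes Plin1, Cidec, Lipe and Adrb3, and Fabp4 and Car3. They are 10 of the 23299 genes in the table, and the level of each is the sum of the RPKM (reads scaled to transcript length and library total) of its transcripts, 30 transcripts in all. All 10 passed the filter for testing, which kept 19042 genes with an RPKM of 1 or more in 2 or more of the 13 libraries. Nothing in the values places the cells in the mesentery, so the genes are called adipocyte genes here.

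The mice were C57BL/6, either wild type (WT) or lacking the sweet and umami taste receptor subunit Tas1r3 in every tissue (Tas1r3−/−, labelled KO), and the WT controls were littermates of a line backcrossed to C57BL/6. From 5 to 6 weeks of age they received, for 10 weeks, a normal diet with plain water (ND) or a Western diet (WD), which was a 60% high-fat diet with a 30% sucrose solution to drink. The labels give 4 mice in each of WT-ND, KO-ND, WT-WD and KO-WD, 2 males and 2 females. Both KO-ND female columns equal weighted means of the KO-ND male columns, except in 17 and 18 transcripts, none of them from the 10 genes. They were left out, and the KO-WD female columns were averaged into 1 library, which leaves 4, 2, 4 and 3 libraries. KO-ND therefore holds males only. The ileum was snap frozen after harvest. Whether attached fat was trimmed is not given in the sources used here.

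The values imply 7004914 to 12386131 reads per library, and 1 read on a transcript of 1 kb corresponds to an RPKM of 0.0692 to 0.139. Deposited RPKM sums to 817011 to 819916 in ND libraries and to 542371 to 685274 in WD libraries, so diet comparisons rest on the scaling of the libraries. Tas1r3 checked the genotype labels. Its scaled RPKM was 1.54 to 2.16 in WT-ND and 4.50 to 6.66 in WT-WD, against at most 0.000758 in KO-ND and 0.00528 in KO-WD. The KO values are above 0 yet far below the RPKM of 1 read on 1 kb. Whether they stem from whole reads was not tested, which limits this check. Values with more than the 6 significant digits found elsewhere occur in 102 of the 59258 transcripts, 3 of them adipocyte transcripts. They are the Adipoq transcript of highest level in WT-WD male 1, the coding Fabp4 transcript in the first KO-WD female column, and another Fabp4 transcript in WT-WD male 2 and WT-WD female 2.

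The stretch before the start site is shown for the adipokine genes and for Plin1, the gene with the largest diet difference. RefSeq entries (GRCm38.p6) matched 7 of the 10 genes with 9 start sites. No entry was used for Fabp4, Car3 or Adrb3. Each line gives 250 bases, 5′ to 3′, ending at the last base before the start site. Capitals mark matches to TTGCNNAA, a motif of the C/EBP family of adipogenic transcription factors. The motif does not read the same on the other strand, and the marked matches fit it on the strand printed.
Adipoq, chr16:23146286-23146535, plus strand: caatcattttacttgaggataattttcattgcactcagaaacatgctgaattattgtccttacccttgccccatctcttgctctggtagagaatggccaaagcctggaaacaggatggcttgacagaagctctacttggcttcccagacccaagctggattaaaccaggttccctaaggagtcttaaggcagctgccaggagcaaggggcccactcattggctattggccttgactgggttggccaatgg
Lep, chr6:29059971-29060220, plus strand: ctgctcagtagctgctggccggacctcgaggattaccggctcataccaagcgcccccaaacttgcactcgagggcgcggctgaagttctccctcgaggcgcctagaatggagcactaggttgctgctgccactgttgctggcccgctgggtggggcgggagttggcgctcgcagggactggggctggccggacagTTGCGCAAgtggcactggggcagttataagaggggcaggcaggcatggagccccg
Retn, chr8:3655520-3655769, plus strand: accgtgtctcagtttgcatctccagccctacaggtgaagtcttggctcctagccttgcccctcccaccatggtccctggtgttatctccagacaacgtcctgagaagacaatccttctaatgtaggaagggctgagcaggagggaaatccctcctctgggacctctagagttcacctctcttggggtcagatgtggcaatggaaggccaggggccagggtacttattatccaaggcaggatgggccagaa
Cfd, chr10:79890603-79890852, plus strand: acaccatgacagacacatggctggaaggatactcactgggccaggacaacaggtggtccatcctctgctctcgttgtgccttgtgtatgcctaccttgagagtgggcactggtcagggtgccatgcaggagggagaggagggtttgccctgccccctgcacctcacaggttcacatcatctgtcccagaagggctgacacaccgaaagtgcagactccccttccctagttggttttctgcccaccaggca
Plin1, chr7:79732777-79733026, minus strand: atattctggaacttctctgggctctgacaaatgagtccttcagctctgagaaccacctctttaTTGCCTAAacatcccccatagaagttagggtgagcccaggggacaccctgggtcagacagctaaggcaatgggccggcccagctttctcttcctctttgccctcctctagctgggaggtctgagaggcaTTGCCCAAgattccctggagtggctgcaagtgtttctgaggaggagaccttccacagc
The motif was found before 3 of the 9 start sites, in Lep at 55 to 48 bases before the start, in Plin1 at 187 to 180 and 58 to 51 bases before it, and in Cidec, and it occurs in 9.56% of the 32851 promoters of the same length. Searches on both strands for AGGTCA, the core site of nuclear receptors such as PPARγ, for 2 copies of it with 1 base between them, and for TATAAA found no match in the 9 windows, and 14%, 0.0335% and 12.4% of all promoters hold them. The letters are a description of these windows and not of factor binding. The Lep stretch holds 16 CG pairs and that of Adipoq 0, with a median of 6 over all promoters.

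All 10 adipocyte genes were detected in all 13 libraries, and libraries of the same group differed widely. Summed over the 10 genes, the scaled RPKM was 55.3, 377.3, 408.9 and 312.7 in WT-ND male 1, male 2, female 1 and female 2. It was 148.7 and 242.4 in KO-ND males 1 and 2, and 89.0, 44.5, 225.9 and 126.3 in the WT-WD libraries in the order used for WT-ND. In KO-WD it was 131, 49.2 and 385 in male 1, male 2 and the female mean. WT-ND male 1 was thus far below the other WT-ND libraries, WT-WD male 2 and KO-WD male 2 were at a similarly low level, and the KO-WD female mean was as high as WT-ND. In a bulk sample, fewer adipocytes and less RNA per adipocyte cannot be told apart. Libraries are named in this order throughout.

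**Figure D1:**
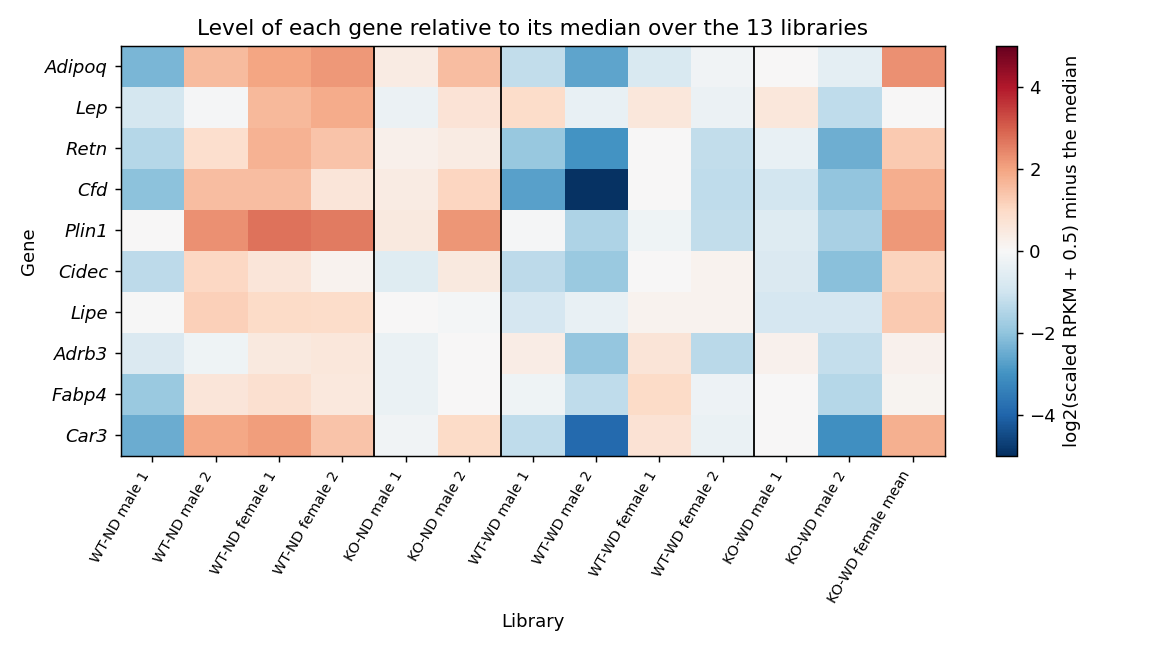
Level of each of the 10 genes (rows) in the 13 libraries (columns), as log2(scaled RPKM + 0.5) minus that gene's median over the libraries; red is above and blue below the median, and black lines separate WT-ND, KO-ND, WT-WD and KO-WD. WT-ND female 1 was among the 3 highest libraries for all 10 genes, and WT-WD male 2 was among the 3 lowest for 9 of them.

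The same libraries were high or low for most of the genes. WT-ND female 1 was among the 3 highest libraries for 10 genes, WT-ND male 2 and the KO-WD female mean for 6 each, and WT-ND female 2 for 5. WT-WD male 2 was among the 3 lowest for 9 genes, KO-WD male 2 for 8, WT-ND male 1 for 6 and WT-WD male 1 for 4. WT-WD male 2 was the lowest library of all for 5 genes and KO-WD male 2 for 3. Each gene's Pearson r with the mean of the other 9, over 13 libraries that share one scaling, ran from 0.642 for Lep to 0.978 for Car3. Retn had 0.966, Cfd 0.900, Cidec 0.892, Plin1 0.876, Adipoq 0.873, Fabp4 0.837, Adrb3 0.731 and Lipe 0.726.

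Spread within groups was wide for these genes. The SD of log2(scaled RPKM + 0.5) within groups had a median of 1.24 over the 10 genes, from 0.721 for Lipe to 2.06 for Car3, against 0.401 over all genes tested. Between 86.3% (Lipe) and 99.9% (Car3) of all genes had a smaller SD, with 98.5% below the median of the 10.

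**Figure D2:**
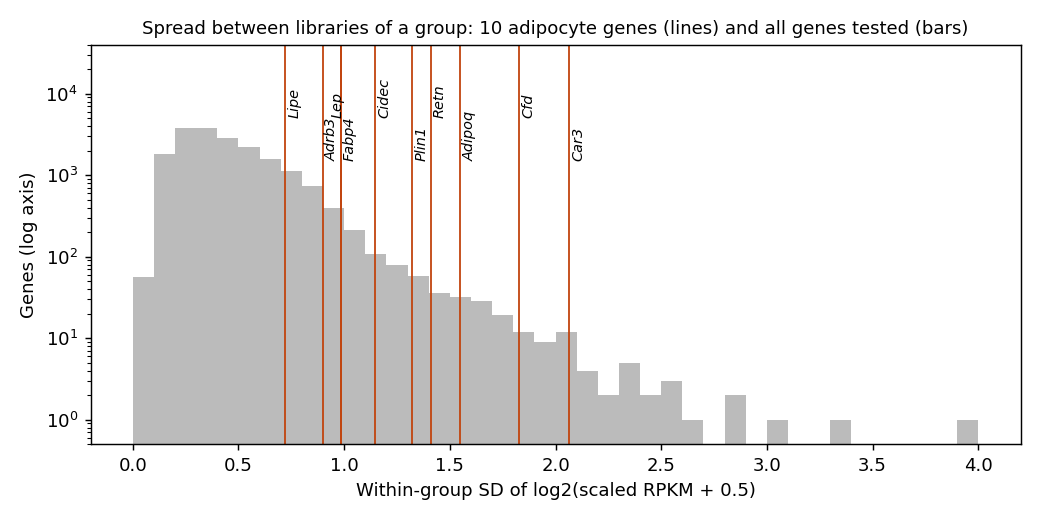
Within-group SD of log2(scaled RPKM + 0.5) for all 19042 genes tested (grey bars, number of genes on a log axis) and for the 10 adipocyte genes (lines). The 10 lie between 0.721 (Lipe) and 2.06 (Car3), and the median of all genes is 0.401.

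Adiponectin, encoded by Adipoq, is the most abundant adipokine in blood and raises insulin sensitivity. Adipoq measured 1.24, 24.7, 32.5 and 37.1 scaled RPKM in WT-ND, 10.7 and 23.9 in KO-ND, 3.06, 0.868, 4.50 and 7.01 in WT-WD, and 7.96, 5.56 and 41.2 in KO-WD. WT-ND male 1 sat inside the WT-WD range and the KO-WD female mean above every WT-ND library, while the other libraries of WT-ND and KO-ND were above all 4 WT-WD libraries. Leptin, the product of Lep, signals the size of fat stores to the brain. Lep, among the lower of the 10 genes on the scaled RPKM scale, measured 0.262, 0.847, 3.79 and 4.50 in WT-ND, 0.636 and 1.74 in KO-ND, 2.16, 0.574, 1.56 and 0.630 in WT-WD, and 1.56, 0.0745 and 0.893 in KO-WD. Both WT-ND females stood above every other library, and KO-WD male 2 rested on 3 reads.

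Resistin, encoded by Retn, is an adipokine linked to insulin resistance in mice. Retn measured 1.21, 7.67, 14.8 and 11.8 scaled RPKM in WT-ND, 5.01 and 5.70 in KO-ND, 0.743, 0.0892, 4.12 and 1.48 in WT-WD, and 3.10, 0.343 and 10.97 in KO-WD. All WT-WD libraries were below both KO-ND libraries, and only WT-ND male 1 among WT-ND fell within the WT-WD range. The value of WT-WD male 2 rests on 1 read. Cfd encodes adipsin, the serine protease complement factor D, which cleaves factor B in the alternative pathway. Cfd measured 5.24, 68.3, 68.5 and 35.9 in WT-ND, 31.0 and 50.3 in KO-ND, 3.13, 0.268, 23.4 and 9.28 in WT-WD, and 12.02, 5.53 and 82.5 in KO-WD. WT-WD male 2, its lowest value, rests on 3 reads, and the KO-WD female mean was its highest.

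Perilipin 1, encoded by Plin1, coats the lipid droplet of adipocytes and gates lipolysis. Plin1 measured 1.999, 11.8, 16.1 and 14.6 scaled RPKM in WT-ND, 2.97 and 11.1 in KO-ND, 1.92, 0.360, 1.65 and 0.574 in WT-WD, and 1.09, 0.319 and 10.7 in KO-WD. It was the only one of the 10 whose WT-WD libraries all lay below all WT-ND libraries, with WT-ND male 1 at 1.999 and WT-WD male 1 at 1.92 next to each other. Cidec (gene at chr6:113424634-113435760 in GRCm38, as for the positions that follow) encodes a droplet protein that lets small droplets fuse into the single large one of white adipocytes. Cidec measured 6.43, 34.7, 25.9 and 19.3 in WT-ND, 11.04 and 24.0 in KO-ND, 6.46, 4.35, 16.9 and 18.9 in WT-WD, and 10.2, 3.55 and 37.2 in KO-WD. Its WT-ND and WT-WD ranges overlapped, and both WT-WD females stood above both WT-WD males.

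Hormone-sensitive lipase, the product of Lipe (chr7:25379527-25398710), hydrolyses diglyceride in lipolysis and is also made outside fat. Lipe measured 18.2, 42.9, 36.2 and 35.2 scaled RPKM in WT-ND, 18.4 and 17.2 in KO-ND, 10.0, 14.01, 20.9 and 21.1 in WT-WD, and 10.1, 10.1 and 46.5 in KO-WD. Its highest value was 4.65 times the lowest, the narrowest fold range of the 10, while its coefficient of variation over the 13 libraries (54.9%) was above those of Fabp4 (50.8%) and Adrb3 (52.3%). Adrb3 (chr8:27225776-27250616) encodes the beta 3 adrenergic receptor, through which catecholamines start lipolysis in rodent fat. Adrb3 measured 1.89, 2.96, 5.04 and 5.41 in WT-ND, 2.65 and 3.49 in KO-ND, 4.64, 0.557, 5.74 and 1.08 in WT-WD, and 4.10, 1.23 and 4.09 in KO-WD. High and low libraries occurred in both WT-WD and KO-WD, so its groups overlapped broadly.

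Fabp4 (chr3:10204088-10208576) encodes the fatty acid binding protein of adipocytes, which macrophages and capillary endothelium also make. Fabp4 measured 14.5, 83.0, 93.3 and 78.0 scaled RPKM in WT-ND, 43.2 and 53.9 in KO-ND, 46.3, 22.1, 103.7 and 45.6 in WT-WD, and 54.7, 19.8 and 59.2 in KO-WD. It was high in every group and its highest value was WT-WD female 1, whereas WT-ND male 1 was its lowest. A transcript annotated as a retained intron contributes a mean deposited RPKM of 12.9 to Fabp4, beside 45.01 for the coding transcript. Both transcripts hold values with more digits, so Fabp4 drops out where such transcripts are left out. Car3 (chr3:14863512-14872523) encodes carbonic anhydrase 3, which is abundant in fat, liver and slow muscle. Car3 measured 4.29, 100.5, 113 and 70.8 in WT-ND, 23.0 and 51.2 in KO-ND, 10.7, 1.30, 43.6 and 20.6 in WT-WD, and 26.2, 2.70 and 91.8 in KO-WD. The highest WT-ND library had 26.3 times the level of WT-ND male 1, and the WT-WD libraries spanned 33.5 times.

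**Figure D3:**
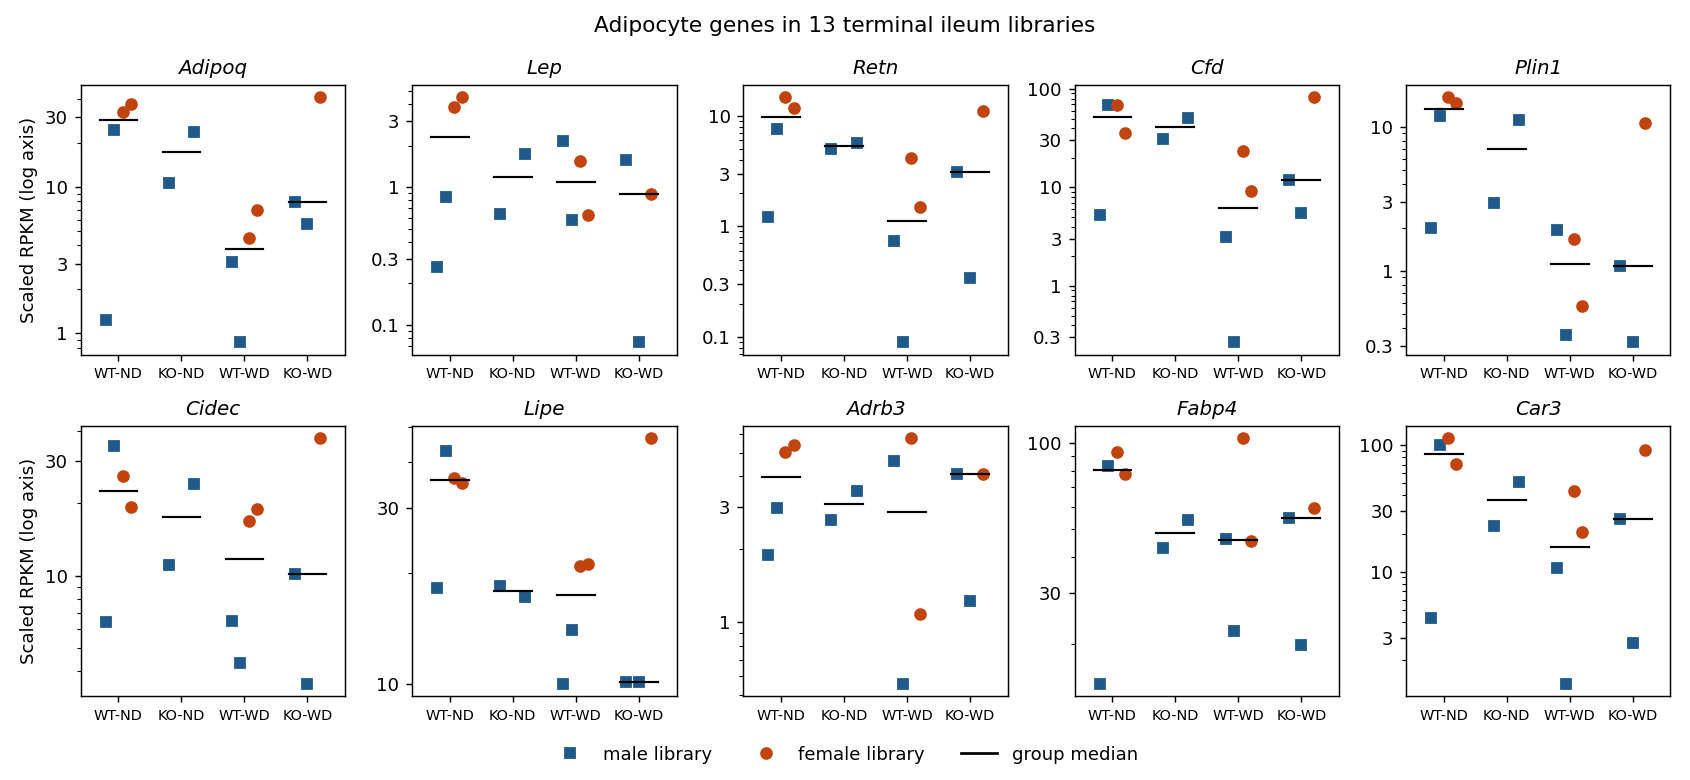
Scaled RPKM (log axes) of the 10 genes in each library of WT-ND, KO-ND, WT-WD and KO-WD, with males as squares, females as circles and the group median as a line; the KO-WD circle is the mean of 2 female columns. Only for Plin1 do all WT-WD libraries lie below all WT-ND libraries, and WT-ND male 1 is the lowest WT-ND library for all 10 genes.

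The averaged KO-WD female columns may not be separate measurements. If the second were exactly the mean of the first and another library, 2 times the second minus the first would never be below 0. It was below 0 in 42 of 59258 transcripts, 1 of them a Fabp4 transcript, and 0 or more in all others. The 42 transcripts thus depart from an exact mean. Whether the columns are separate measurements was not tested. Counting them once was a precaution. The higher of the deposited values was 1.13 times (Lep) to 1.43 times (Plin1) the lower for 9 genes, with the first column higher, and 1.90 times for Fabp4, with 32.2 RPKM in the first column and 61.3 in the second. Adipoq had 36.9 and 28.2 RPKM there.

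The first comparison asked how the WD changed the ileum of WT mice. All 10 genes were lower on average in WT-WD than in WT-ND, with a median log2 difference of −1.45 against 0.032 over all genes, where 47.0% of genes lay below 0. Adipoq averaged 3.86 ± 2.58 scaled RPKM in WT-WD against 23.9 ± 15.9 in WT-ND (SD, n = 4 each), Plin1 1.13 ± 0.774 against 11.1 ± 6.33, Retn 1.61 ± 1.77 against 8.85 ± 5.86 and Cfd 9.01 ± 10.3 against 44.5 ± 30.3. None of the 10 was called by limma at a Benjamini-Hochberg adjusted p below 0.01 with a fold of at least 2, and 0.00525% of all genes were. At an unadjusted p below 0.05, 5 of the 10 were lower, beside 8.09% of all genes.

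Of the 10, Plin1 had the largest log2 difference, −2.66 (SE 0.81, limma adjusted p = 0.16). Cfd followed at −2.64 (SE 1.10, adjusted p = 0.277), Retn at −2.15 (SE 0.86, adjusted p = 0.257) and Adipoq at −2.05 (SE 0.94, adjusted p = 0.317), and Lipe at −0.98 (SE 0.45, adjusted p = 0.317) was the other gene under 0.05 before adjustment. Car3 stood at −1.93 with an SE of 1.24. The differences of Cidec (−0.87), Adrb3 (−0.58), Lep (−0.43) and Fabp4 (−0.22) and that of Car3 were under 2 times their SE. In a two-sided exact permutation test over the 70 ways to split the 8 libraries, Plin1 reached p = 0.0286, the smallest possible, and the other genes 0.0857 to 0.714. Non-overlapping lower groups, found for Plin1 alone of the 10, occurred in 5.96% of all genes.

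Single libraries moved the WT diet difference. Its median over the 10 genes was −2.09 without WT-ND male 1 and −0.98 without WT-WD male 2, and it was below 0 whichever of the 8 libraries was left out. The count of 5 genes with an unadjusted p below 0.05 was less stable. It was 1 without WT-ND male 2, WT-ND female 1, WT-ND female 2, WT-WD male 1 or WT-WD male 2, and 4 to 6 without any one of the others. Within sexes, the median was −1.50 in males and −1.63 in females, with 2 libraries a group. For Lep the difference in males alone was 0.75, the opposite direction. Without scaling, the median of all genes moved to −0.38 with the column totals, and limma called 531 genes lower and 8 higher, none of the 10 among them, with Plin1 at an adjusted p of 0.0212.

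**Figure D4:**
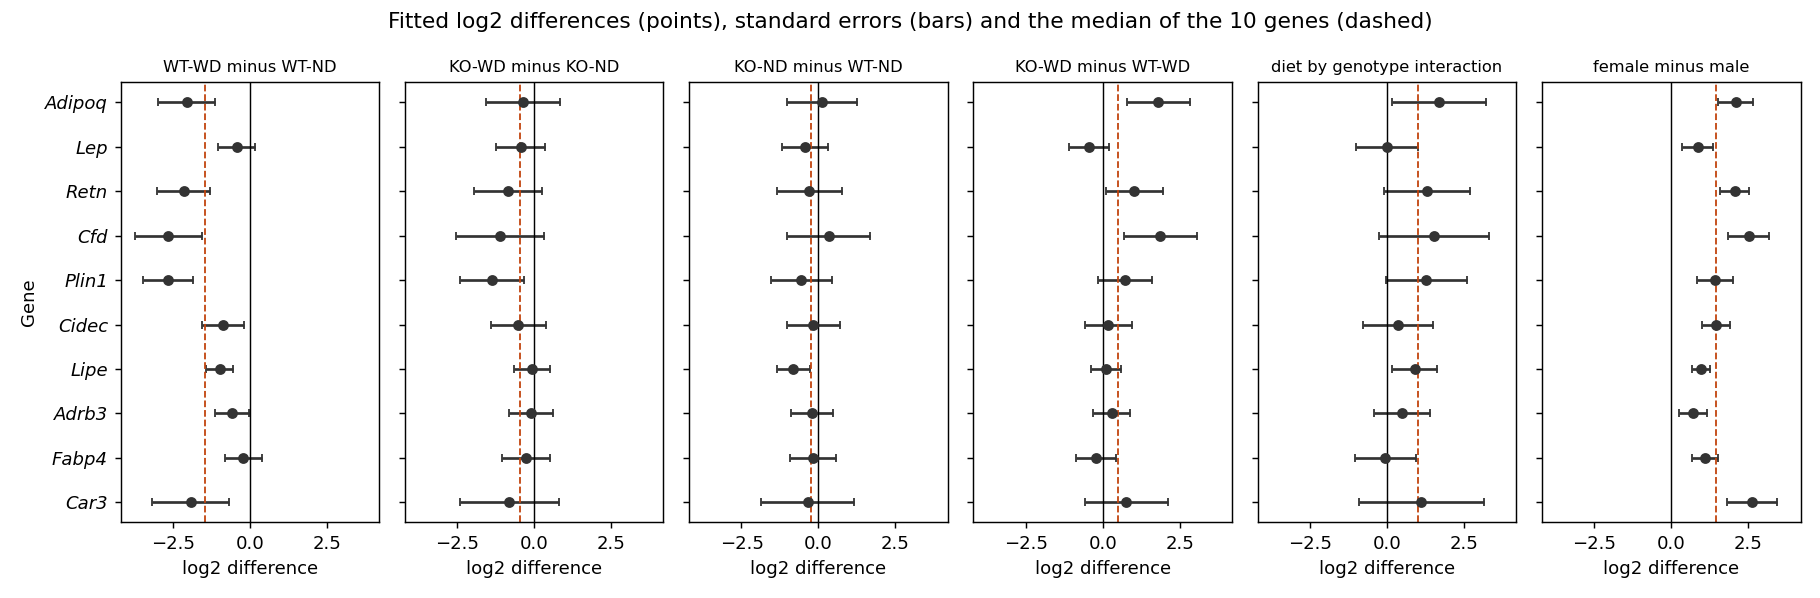
Fitted log2 differences of the 10 genes (points) with standard errors (bars) in 6 comparisons from limma on log2(scaled RPKM + 0.5), with the median of the 10 genes as a dashed line. All 10 points lie below 0 for WT-WD minus WT-ND and above 0 for female minus male, and no gene was called in any panel.

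Among Tas1r3−/− mice no diet difference of these genes was detectable in the fit of all 13 libraries. On the log2 scale all 10 genes were below 0 in KO-WD minus KO-ND, with a median of −0.47 and a range from −1.38 (Plin1, SE 1.04) to −0.07 (Lipe, SE 0.58), and 50.6% of all genes lay below 0. Means of scaled RPKM went the other way for Adipoq, at 18.2 ± 19.9 in KO-WD (SD, n = 3) against 17.3 ± 9.28 in KO-ND (n = 2), and likewise for Car3, Adrb3 and Lipe, while Plin1 averaged 4.03 ± 5.78 against 7.03 ± 5.74. By limma, 0 of the 10 were called, as were 0 of all genes, and 0 of the 10 had an unadjusted p below 0.05, beside 5.65% of all genes. With 10 splits of 5 libraries, the exact permutation test cannot go below p = 0.1, and the smallest value was 0.4, for Plin1. KO-ND holds males only while the KO-WD female mean was among the highest libraries. The comparison shares the KO-WD and KO-ND libraries with the genotype comparisons that follow. The median was −1.27 without the KO-WD female mean, −1.03 with sex as a covariate and 0.23 without KO-WD male 2. In males alone it was −1.29 with all 10 genes below 0, beside −1.50 for the WT diet difference in males.

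The genotype comparison on the ND gave small differences. The median log2 difference of KO-ND minus WT-ND was −0.24, with 8 genes below 0 and 2 above, beside 48.5% of all genes below 0, and a range from −0.81 (Lipe, SE 0.55) to 0.34 (Cfd, SE 1.35). The 2 genes above 0, Cfd and Adipoq (0.12), were so on the log2 scale only, since the means of scaled RPKM were lower in KO-ND for all 10 genes. Cfd averaged 40.6 ± 13.7 in KO-ND (SD, n = 2) and 44.5 ± 30.3 in WT-ND (n = 4), Adipoq 17.3 ± 9.28 and 23.9 ± 15.9, and Lipe 17.8 ± 0.892 and 33.1 ± 10.5. By limma, 0 genes were called among the 10 and 0 over all genes, and 0 of the 10 had an unadjusted p below 0.05, beside 4.83% of all genes. The exact permutation test over 15 splits cannot go below p = 0.0667, and the smallest value was 0.267, for Lipe. KO-ND holds males only while WT-ND holds 2 males and 2 females, so this difference mixes genotype with sex. With sex as a covariate the median was 0.47 with 2 genes below 0, and with males alone it was 0.56 with 1 below 0. The direction of the median also differed with the libraries in the fit. It was 0.14 without KO-ND male 1, 0.036 without WT-ND female 1 and −0.94 without WT-ND male 1.

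On the WD, which asks how the knockout differed from WT under the diet, 8 of the 10 genes averaged higher in KO-WD than in WT-WD. The median log2 difference was 0.51, and 55.6% of all genes lay below 0. Cfd was highest at 1.87 (SE 1.19), from 33.4 ± 42.7 scaled RPKM (SD, n = 3) against 9.01 ± 10.3 (n = 4). Adipoq followed at 1.81 (SE 1.01, limma adjusted p = 1), from 18.2 ± 19.9 against 3.86 ± 2.58, and its exact permutation p over 35 splits was 0.0857, where 0.0286 is the smallest possible. Retn was at 1.02, Car3 at 0.77, Plin1 at 0.72, Adrb3 at 0.29, Cidec at 0.19 and Lipe at 0.098, with SE of 0.48 to 1.34, and Fabp4 (−0.23) and Lep (−0.44) were below 0.

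None of these passed a test. By limma, 0 of the 10 were called, beside 0.0105% of all genes, and 0 of the 10 had an unadjusted p below 0.05, beside 2.62%. KO-WD holds 2 male libraries and 1 female library against 2 and 2 in WT-WD. With sex as a covariate the median was 0.69, and with the replicate block it was 0.56. No gene of the 10 was called in those fits. Single libraries set the sign of the median, which was −0.32 without the KO-WD female mean, −0.045 without WT-WD male 2, 0.23 in males alone and 1.28 without KO-WD male 2. In females alone, where KO-WD is 1 library, it was 1.38. In males alone Plin1 (−0.34) and Lipe (−0.21) were below 0 and Fabp4 (0.045) was above it.

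Whether the diet difference itself differed between genotypes was tested as an interaction. The median over the 10 genes was 1.01 on the log2 scale, with 8 genes above 0, where 53.1% of all genes lay below 0, and a range from −0.050 (Fabp4, SE 0.98) to 1.69 (Adipoq, SE 1.53). By limma, 0 of the 10 and 0 of all genes were called, and 0 of the 10 had an unadjusted p below 0.05, beside 1.43% of all genes. None of the 10 differences reached 2 times its SE. The median was 0.23 without the KO-WD female mean and 1.72 without KO-WD male 2, the lowest and highest when 1 library was left out. It was 0.42 with sex as a covariate, 0.33 with the replicate block and 0.22 in males alone.

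Libraries of the same group also differed by sex. All 10 genes were higher in females in a limma fit with group and sex as terms, with a median log2 difference of 1.44 against 0.010 over all genes, where 49.0% of genes lay below 0. Over WT-ND, WT-WD and KO-WD, the groups with both sexes, Adipoq averaged 24.5 scaled RPKM in females and 7.23 in males, Car3 67.9 and 24.3, Cfd 43.9 and 15.7, and Retn 8.62 and 2.19. At an unadjusted p below 0.05, 8 of the 10 were higher, beside 11.2% of all genes. That count was 6 to 10 when any one library was left out. None was called, while 0.042% of all genes were, and the smallest adjusted p was 0.0616, for Retn.

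The largest female minus male differences were 2.63 for Car3 (SE 0.81, adjusted p = 0.115), 2.51 for Cfd (SE 0.66, adjusted p = 0.0801), 2.09 for Adipoq (SE 0.58, adjusted p = 0.0885) and 2.06 for Retn (SE 0.48). Cidec had 1.46, Plin1 1.42, Fabp4 1.10 and Lipe 0.97, and Lep (0.86, SE 0.49) and Adrb3 (0.71, SE 0.46) were the genes without a p below 0.05. In an exact permutation test of sex within groups, with 108 arrangements, Adipoq reached p = 0.00926, the smallest possible, Retn 0.0185, Cfd and Lipe 0.0278 and Cidec 0.0463, and the other 5 had 0.0556 to 0.222.

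Females lay above males without overlap for 5 of the 10 genes in WT-ND, beside 20.3% of all genes, for 6 in WT-WD, beside 20.8%, and for 8 in KO-WD, beside 39.2%. This held in all 3 groups for Adipoq and Retn, beside 4.66% of all genes. In WT-ND, male 2 lay within or above the female range for Cfd, Cidec, Lipe, Fabp4 and Car3. Over the fits that left out each library in turn, the median difference ran from 1.13 without the KO-WD female mean to 1.83 without WT-ND male 2. In that last fit Cfd had an adjusted p of 0.0285. Sex and the tissue taken from each mouse cannot be told apart with 2 mice a sex in a group.

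Markers of other cell types also varied between these libraries. The summed scaled RPKM of 8 enterocyte markers was 8263 to 13119 in WT-ND, 4749 to 6758 in KO-ND, 6269 to 23729 in WT-WD and 1790 to 12683 in KO-WD, and all 8 were above 0 in female minus male, with a median of 0.71 and 1 of them at an unadjusted p below 0.05. The 6 smooth muscle markers summed to 1094 to 3425, 1942 to 3804, 1026 to 4188 and 1358 to 5324 in the same group order, with 5 of 6 below 0 in female minus male and a median of −0.21. The 6 fibroblast and progenitor markers summed to 127.8 to 255.6, 193.2 to 225.1, 109.2 to 372.5 and 92.9 to 379.8, with all 6 above 0 in WT-WD minus WT-ND and a median of 0.39. Most smooth muscle markers (5 of 6, median 0.37) were likewise above 0 in WT-WD minus WT-ND, and 5 of 6 fibroblast markers (median −0.50, 1 at an unadjusted p below 0.05) were below 0 in female minus male, so most of both lists lay on the other side of 0 from the adipocyte genes in both comparisons. None of these markers was called in them, and each was above 0 RPKM in at least 1 library. The signs of these markers by genotype were as follows. All 8 enterocyte markers were below 0 in KO-ND minus WT-ND (median −1.12, none at an unadjusted p below 0.05) and in KO-WD minus WT-WD (median −0.90, 2 at an unadjusted p below 0.05). All 6 smooth muscle markers were above 0 in both (medians 0.66 and 0.35, none at an unadjusted p below 0.05). Of the 6 fibroblast markers, 5 were above 0 on the ND and 0 on the WD. None was called there. KO-ND holds males only, so the ND comparison mixes genotype with sex. The part of these tissues in the differences of the adipocyte genes was not tested.

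Mesothelium covers the outer face of the gut and the mesentery. Of its 6 markers 5 are in the table and 2 were tested, and both tested markers were above 0 in female minus male (median 0.69). The mesothelial sum was 6.46, 4.21, 12.04 and 9.40 in WT-ND, 5.32 and 2.61 in KO-ND, 8.04, 3.64, 3.80 and 11.9 in WT-WD, and 4.18, 3.45 and 9.79 in KO-WD. It was high, like the adipocyte sum, in both WT-ND females and the KO-WD female mean. It also ran with that sum in the WT-WD males and in the KO-WD males. The mesothelial sum ran opposite to the adipocyte sum in the WT-ND males, in the KO-ND males and in the WT-WD females. The part of mesothelium in the results was not tested. No marker of blood or immune cells was called in female minus male. The 3 erythroid markers tested were all above 0 in female minus male (median 1.14, 1 at an unadjusted p below 0.05), and the list summed to 19.0 to 124.6 in WT-ND, 60.8 to 78.4 in KO-ND, 15.4 to 160.5 in WT-WD and 51.6 to 67.8 in KO-WD. The 4 B cell markers tested were all above 0 too (median 0.78, 2 at an unadjusted p below 0.05), with sums of 3.75 to 47.1, 7.73 to 9.64, 11.9 to 32.0 and 8.58 to 32.1 in the same group order. The 4 macrophage markers, whose cells can express Fabp4, were all below 0 in female minus male (median −0.29, none at an unadjusted p below 0.05) and all above 0 in WT-WD minus WT-ND (median 0.63, 2 at an unadjusted p below 0.05), with sums of 10.1 to 17.3, 14.9 to 19.4, 14.3 to 29.6 and 9.77 to 20.4. The 4 endothelial markers were also all above 0 in WT-WD minus WT-ND (median 0.52), with sums of 15.0 to 31.6, 20.2 to 23.8, 13.4 to 76.2 and 15.1 to 50.05. Of 5 skeletal muscle markers 3 are in the table, and they summed to 27.0 to 107, 51.4 to 107.4, 32.4 to 124.2 and 37.4 to 110.8. Within each group their sum ranked the libraries in the same order as the smooth muscle sum, so it need not stand for skeletal muscle. The part of these cell types in the results was not tested. Pancreatic acinar markers summed to 0 to 18.4 in WT-ND, with the highest value in WT-ND female 1, the library with the highest adipocyte sum, and to 0 to 6.10 elsewhere.

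**Figure D5:**
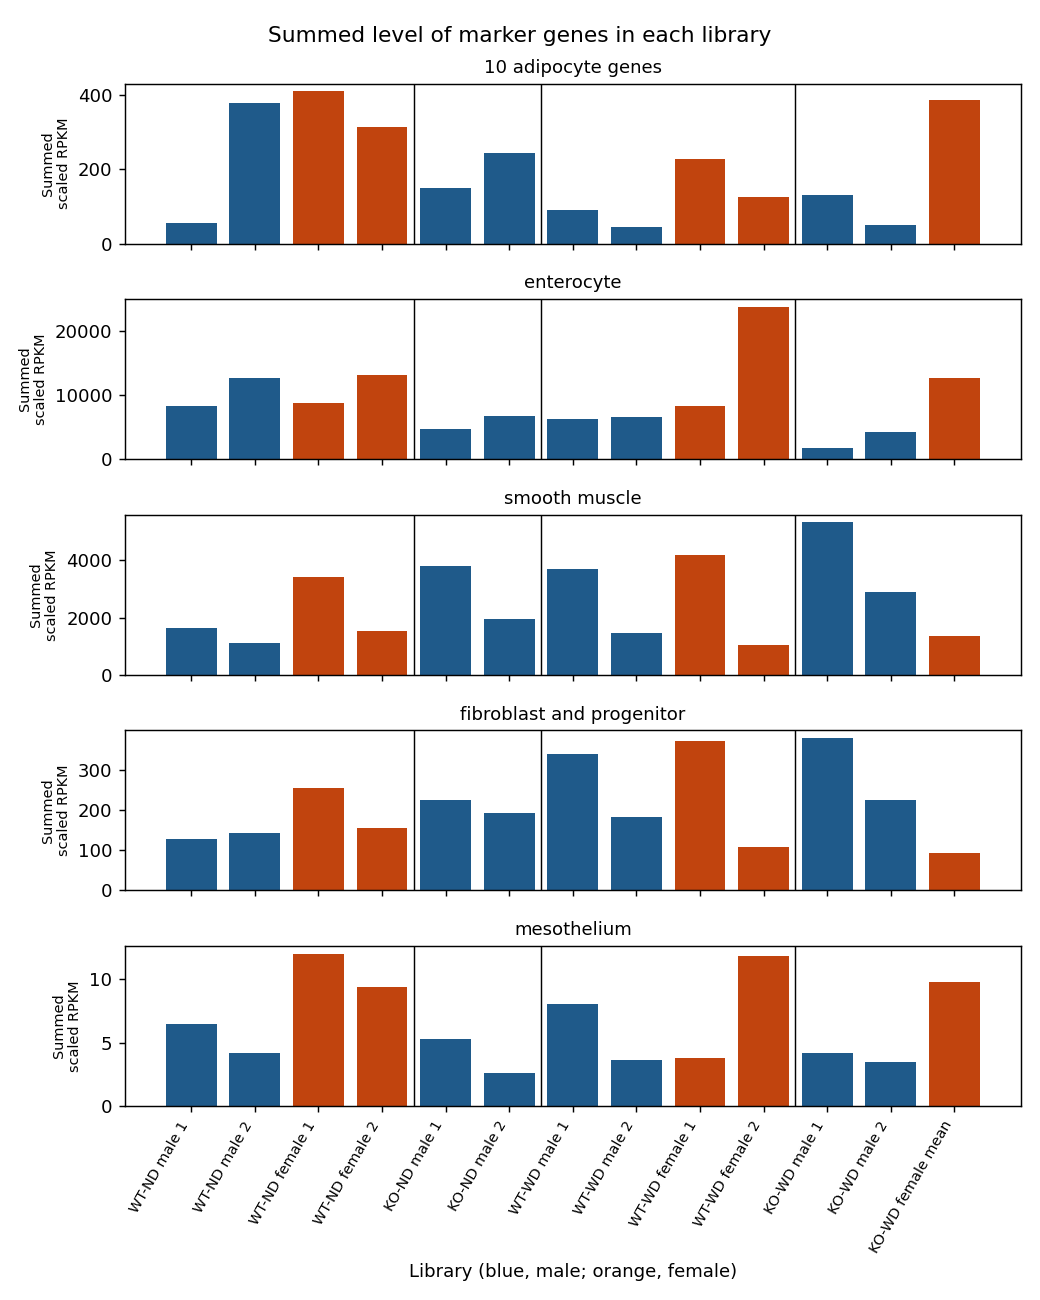
Summed scaled RPKM (linear axes from 0) of the 10 adipocyte genes and of markers of enterocytes, smooth muscle, fibroblasts and progenitors, and mesothelium in each of 13 libraries, blue for males and orange for females, with lines between WT-ND, KO-ND, WT-WD and KO-WD. The adipocyte sum runs from 44.5 in WT-WD male 2 to 408.9 in WT-ND female 1, and WT-ND male 1 is at 55.3.

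Many further genes of adipocyte metabolism are also made by enterocytes. The 8 genes of fatty acid synthesis and glucose uptake were all below 0 in WT-WD minus WT-ND, 7 of them with an unadjusted p below 0.05, a median of −1.19 and none called. Thrsp, a regulator of lipogenesis, was at −3.91 (SE 0.81), Scd1, which desaturates stearate, at −3.09 (SE 0.60), and Fasn, fatty acid synthase, at −2.35 (SE 0.41, adjusted p = 0.0574). The exception was Slc2a4, the insulin-regulated glucose transporter, at −0.006. In KO-WD minus WT-WD all 8 were above 0 with a median of 0.43, and Scd1 stood at 3.22 (SE 0.64, adjusted p = 0.371), with means of 111.9 ± 46.9 (SD, n = 3) and 11.8 ± 5.89 scaled RPKM (n = 4).

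The 9 genes of fatty acid uptake and triglyceride synthesis had 8 below 0 in WT-WD minus WT-ND, 2 of them (Acsl1 and Gpd1) with an unadjusted p below 0.05, and a median of −0.40. Lpl, the lipoprotein lipase that adipocytes secrete, was at −0.87 (SE 0.64). Of the 7 further droplet and lipolysis genes, 4 were below 0, with a median of −0.07. Pnpla2, the lipase of the first step of lipolysis, measured 88.0 ± 16.4 scaled RPKM in WT-ND and 59.2 ± 14.3 in WT-WD (SD, n = 4 each), and Pde3b, through which insulin restrains lipolysis, was at 0.80 (SE 0.30, adjusted p = 0.228). In female minus male, 6 of the 7 were above 0 and Pnpla2 was at 0.66 (SE 0.17, adjusted p = 0.0801).

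All 5 adipogenic transcription factors were below 0 in WT-WD minus WT-ND, 2 of them (Pparg and Srebf1) at an unadjusted p below 0.05, with a median of −0.41. Pparg encodes the master regulator of fat cell formation. Its scaled RPKM was 2.69 ± 1.09 in WT-ND (SD, n = 4), 9.72 ± 0.356 in KO-ND (n = 2), 1.33 ± 0.880 in WT-WD (n = 4) and 7.03 ± 2.75 in KO-WD (n = 3). Single libraries ran from 1.23 to 3.87 in WT-ND and from 9.46 to 9.97 in KO-ND, which holds males only. They ran from 0.746 to 2.64 in WT-WD and from 4.63 to 10.04 in KO-WD. The log2 difference between genotypes was 1.76 (SE 0.43, adjusted p = 0.891) on the ND and 2.08 (SE 0.38, adjusted p = 0.239) on the WD. Neither was called.

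Of the 10 genes of the adipocyte surface and cytoplasm, 6 were below 0 in WT-WD minus WT-ND with a median of −0.06, and none had a p below 0.05. Trarg1, which adipocytes use in glucose transporter traffic, was at −0.56 (SE 0.54) there and at 1.19 (SE 0.34, adjusted p = 0.0952) in female minus male. Of 6 genes of brown and beige fat, 3 could be tested, with 2 above 0 in the WT diet comparison and none at p below 0.05. The 5 receptors and binding proteins of adiponectin, leptin and resistin had 3 below 0 and a median of −0.05, and Adipor1 measured 52.1 ± 4.41 in WT-ND and 40.5 ± 7.47 in WT-WD. The 5 complement genes beside Cfd had 4 above 0 and a median of 0.69, and Cfb, the substrate of adipsin, was at −0.007 (SE 0.31) with 64.9 ± 7.19 and 65.4 ± 13.7. Cfd, its protease, averaged 44.5 and 9.01 in the same groups.

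Several relatives of the 10 genes belong to the gut lining. The 4 other fatty acid binding protein genes had 2 above and 2 below 0 in WT-WD minus WT-ND, and Fabp6, the ileal bile acid binding protein, measured 3538 ± 948.2 and 3291 ± 3713 scaled RPKM. Of the other perilipins 3 were tested, with Plin2, which coats droplets in most cells, at −0.25 (SE 0.31). Cideb, the member of the Cidec family found in liver and gut, was at −0.55 (SE 0.51). Among 8 other carbonic anhydrases 4 were below 0, with Car1 at −3.54 (SE 1.55) and Car4 at −1.41 (SE 0.56) at an unadjusted p below 0.05. The 2 resistin-like genes tested were both below 0, Retnlb of goblet cells at −1.33 (SE 1.09). No gene of these families was called.

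The genes outside the 10 whose profile over the 13 libraries was most like the mean z-score of the 10 were Ctrl (Pearson r = 0.952), Lztr1 (0.942), Trf (0.937), Apol6 (0.922), Orm1 (0.918), Zfp276 (0.918), Trarg1 (0.916), Lpl (0.906), Zyg11a (0.900) and Slc36a2 (0.896). The libraries share one scaling, and the r values are a description. Trf, the iron carrier transferrin, ran from 7.01 to 70.6 scaled RPKM, Lpl from 1.33 to 13.2 and Slc36a2, an amino acid transporter, from 0.1999 to 2.92. Lztr1 ran only from 21.0 to 33.9. Ctrl, with the highest r, was low in all libraries at 0.11 to 1.72, as was Zyg11a at 0.024 to 1.37. Of the 10, Trarg1 and Lpl were on the lists of other adipocyte genes. All 10 were below 0 in WT-WD minus WT-ND and above 0 in female minus male, with log2 differences from −1.95 (Orm1) to −0.31 (Zfp276) and from 0.27 (Lztr1) to 1.54 (Orm1), and their adjusted p values were at least 0.242 and 0.0952. These 10 were picked by likeness to a profile with the same directions, so the directions follow from the choice of genes.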

How the data were processed

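Terminal ileum RNA was read by Ion Proton sequencing. The authors used Partek Flow, aligned with STAR 2.5.3a (GRCm38), quantified transcripts of Ensembl release 91, and deposited RPKM per transcript. The deposited values are not whole, although their file is named as counts. The scale of the library total is not given in the sources used here. RPKM was summed per gene over the 13 libraries kept. Whole reads were read from the steps of low values (78.1% to 88.0% of values whole within 0.02 reads) and used only to state depth. To scale the libraries, log ratios to a reference library were trimmed (30% of ratios and 5% of levels at each end) and averaged, in code written for this work and tested on simulated data, as was the fit. The model (limma 3.58.1, R 4.3.3) took log2(scaled RPKM + 0.5) with all 4 groups together and variances moderated along the mean, and p values were adjusted by Benjamini-Hochberg over 19042 genes. Fold changes on this scale understate those of low genes. Genes were called at an adjusted p below 0.01 and a fold of at least 2, the thresholds of the study. Samples are separate mice per the labels. All 10 genes were named in every comparison, list genes by their level or p, and the 10 most similar genes by Pearson r. Gene positions are from GENCODE M21 and promoters from RefSeq. Exact permutation tests used Python 3.11.15 and were two-sided. Other scalings, pseudocounts, filters, covariates and left-out libraries were tried. The 10 genes and the lists were chosen with earlier results of these data known.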

Additional observations from a re-analysis of the deposited data

How the results depend on the processing

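None of the 10 genes was called under any alternative, and all 10 were higher in females under each alternative that tested sex and kept the gene. In WT-WD minus WT-ND all were lower, except Lep in males only and Fabp4 without WT-ND female 1 or WT-WD male 2. The smallest adjusted p of the 10 was 0.0212, for Plin1 without scaling. In the other comparisons, signs turned as given here, and the cause was not tested. With upper quartile scaling, the genes called numbered 1 in KO-WD minus KO-ND. Without scaling, the genes called numbered 539 in WT-WD minus WT-ND, 4 in KO-WD minus WT-WD and 13 in female minus male, and the log2 difference changed sign in KO-ND minus WT-ND (Adipoq −0.043) and in the interaction (Fabp4 0.034 and Lep 0.085). With a pseudocount of 0.1, the genes called numbered 1 in KO-ND minus WT-ND. With a pseudocount of 1, the log2 difference changed sign in the interaction (Lep 0.10). Without the filter, the log2 difference changed sign in the interaction (Lep 0.0065). With a filter on a mean RPKM of at least 5 in any group, the genes called numbered 1 in KO-WD minus KO-ND, 1 in KO-WD minus WT-WD and 3 in female minus male. With sex as a covariate, the genes called numbered 3 in WT-WD minus WT-ND, and the log2 difference changed sign in KO-ND minus WT-ND (Fabp4 0.37, Cidec 0.56, Retn 0.74, Car3 0.96, Adrb3 0.16 and Plin1 0.15) and in the interaction (Cidec −0.13). In males only, the genes called numbered 0 in WT-WD minus WT-ND and 0 in KO-WD minus WT-WD, and the log2 difference changed sign in WT-WD minus WT-ND (Lep 0.75), in KO-ND minus WT-ND (Fabp4 0.47, Cidec 0.11, Lep 0.67, Retn 0.65, Car3 0.67, Adrb3 0.31 and Plin1 0.20), in KO-WD minus WT-WD (Fabp4 0.045, Plin1 −0.34 and Lipe −0.21) and in the interaction (Adrb3 −0.031 and Plin1 −0.54). In females only, the genes called numbered 0 in WT-WD minus WT-ND and 0 in KO-WD minus WT-WD. With all 16 columns as labelled, the genes called numbered 33 in WT-WD minus WT-ND, 18 in KO-WD minus KO-ND, 1 in KO-ND minus WT-ND, 6 in KO-WD minus WT-WD and 0 in female minus male, and the log2 difference changed sign in KO-WD minus KO-ND (Adipoq 0.079, Adrb3 0.040 and Lipe 0.28) and in the interaction (Fabp4 0.076 and Lep 0.086). With the first KO-WD female column alone, the log2 difference changed sign in the interaction (Lep 0.022). At an adjusted p below 0.05 with no fold minimum, the genes called numbered 12 in WT-WD minus WT-ND, 1 in KO-WD minus KO-ND, 1 in KO-ND minus WT-ND, 5 in KO-WD minus WT-WD and 97 in female minus male. Without transcripts with longer values, the genes called numbered 0 in KO-WD minus WT-WD, and the log2 difference changed sign in KO-WD minus KO-ND (Adipoq 0.15). With each library left out in turn, KO-ND minus WT-ND gave Adipoq −0.93 to 0.69, Car3 −1.42 to 0.23, Cfd −0.48 to 0.72, Cidec −0.71 to 0.38, Fabp4 −0.80 to 0.084, Lep −0.94 to 0.058, Plin1 −1.43 to 0.32 and Retn −0.98 to 0.076. For KO-WD minus KO-ND, the ranges were Adipoq −1.19 to 0.21, Adrb3 −0.32 to 0.40, Car3 −1.90 to 0.54, Cidec −1.34 to 0.28, Fabp4 −0.53 to 0.26, Lep −0.92 to 0.10, Lipe −0.77 to 0.32 and Retn −1.74 to 0.16. For KO-WD minus WT-WD, the ranges were Adrb3 −0.16 to 0.81, Car3 −0.30 to 2.14, Cidec −0.61 to 1.01, Fabp4 −0.58 to 0.32, Lep −0.82 to 0.12, Lipe −0.58 to 0.51, Plin1 −0.35 to 1.56 and genes called 1 to 3. For the interaction, the ranges were Cidec −0.44 to 1.18, Fabp4 −0.41 to 0.58 and Lep −0.47 to 0.56. For WT-WD minus WT-ND, the ranges were Fabp4 −0.84 to 0.14 and genes called 1 to 3. The shallowest values, 1 to 3 reads for Retn, Cfd and Lep in single libraries, limit those levels, and intervals for reads would cover counting error only.

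Libraries of the same replicate number and sex share no more than a number in the labels. Of 14 pairs of same-numbered libraries, 7 had a correlation of deviations over 0.1 (range −0.15 to 0.57). Of the 12 numbered libraries, 8 were closest to one of their own number, so structure shared by number or sex is possible and was not tested. Because the labels name no pairing, the replicate block was used as an alternative only. It moved the median of KO-ND minus WT-ND from −0.24 to 0.44. With the replicate block, the genes called numbered 2 in WT-WD minus WT-ND, and the log2 difference changed sign in KO-ND minus WT-ND (Fabp4 0.34, Cidec 0.53, Retn 0.69, Car3 0.90, Adrb3 0.11 and Plin1 0.081) and in the interaction (Cidec −0.18). It changed no call among the 10 genes.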
